A study of Mus musculus with 2 samples.

Results

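Dlk1-high dermal fibroblasts were examined in dissociated dorsal skin of mouse pups at postnatal day 3. They were 64 of 18186 cell barcodes, of which 31 belonged to the control and 33 to the induced library. They were chosen by measured values. A barcode needed at least 1000 unique molecular identifiers (UMIs, each standing for 1 captured RNA molecule), at least 500 genes and under 15% mitochondrial UMIs. Per 10000 UMIs it also needed at least 50 of Col1a1, Col1a2 and Col3a1 together, fewer than 100 of keratin genes and at least 5 of Dlk1. Barcodes with more than 2 detected genes of the dermal papilla, adipocyte or mural lists were left out. The study made 1 droplet library per group with 3′ chemistry version 3.1. The control pups had the genotype given as Wildtype and received Dox. The other group had the genotype given as miR-200b induced and also received Dox, so Dox was common to both libraries. Epidermal and dermal cell suspensions were combined in parts of 30 and 70, which bears on any share of cells. The construct that induces the microRNA, the cells that drive it and the number of pups behind each library are not described in the labels. With 1 library per group there was no test, and genotype and library cannot be told apart. Intervals below are 95% intervals and cover counting error only.

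Dlk1 encodes a membrane protein related to the Notch ligands that can be shed from the cell surface. It is an imprinted gene, expressed from the paternal copy, and is known as preadipocyte factor 1 because it marks precursors of fat cells and holds back their differentiation. In newborn mouse skin Dlk1 is known as a marker of the lower, reticular dermis and the fat layer beneath it. The microRNA induced in the second group, miR-200b, is best known in epithelia, where it lowers the transcription factors Zeb1 and Zeb2. Its mature strand is shown because it is the agent that separates the groups. It is 22 bases long, lies on chromosome 4 of GRCm38.p6 at chr4:156055685-156055706 on the minus strand in RefSeq, and carries its seed, bases 2 to 8, in capitals.
mmu-miR-200b-3p: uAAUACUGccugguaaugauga
The same seed is found in 3 mature mouse microRNAs of that table, miR-200b-3p, miR-200c-3p and miR-429-3p.

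The number of Dlk1-high barcodes was nearly the same in both libraries, while their share of the dermal fibroblasts was larger in the induced one. Of the control library's quality-passing barcodes they made up 0.599% (31 of 5178, exact interval 0.407 to 0.849%), and of those in the induced library 0.628% (33 of 5258, 0.432 to 0.880%). Among barcodes that met every part of the rule except the Dlk1 level, they made up 5.59% for the control library (31 of 555, 3.83 to 7.84%) and 12.1% for the induced one (33 of 273, 8.47 to 16.6%). These Clopper-Pearson intervals did not overlap for the share of fibroblasts and did overlap for the share of all barcodes. The barcodes below the Dlk1 threshold, called Dlk1-low here, were 524 and 240. The members of the libraries were thus close in number while the Dlk1-low barcodes were not. The mixing of the suspensions, the yield of dermal cells and the rule's collagen minimum can each set such shares. Their part was not tested. The collagens of the rule together had a median of 481.5 per 10000 UMIs in control and 229.5 in induced Dlk1-low barcodes. Their lowest values there, 50.07 and 50.85, lay just above the minimum of 50. In Dlk1-high barcodes the medians were 1284 and 493.4. No other collagen minimum was run.

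Dlk1 itself was similar in level in both sets of members. Summed over the members it had 439 UMIs in the control library, or 1635 per 1000000 UMIs (CPM), and 399 UMIs, or 1650 CPM, in the induced one. Per barcode, the lowest, median and highest values were 5.09, 10.6 and 39.6 per 10000 UMIs for control members and 5.66, 11.3 and 81.7 for induced members. The medians were close, and the 4 highest induced barcodes, at 61.3 to 81.7, lay above every control barcode. Members at 20 per 10000 or above numbered 7 in each library. The rule fixed the lower end of these values. Just inside it lay control barcodes at 5.09, 5.12 and 5.62 and induced barcodes at 5.66, 6.26 and 6.38 per 10000. Just outside lay control barcodes at 4.74, 4.58 and 4.28 and induced barcodes at 4.79, 4.75 and 4.24. In 5 control and 2 induced members the call rested on fewer than 3 Dlk1 UMIs. No Dlk1 UMI was found in 464 control and 212 induced Dlk1-low barcodes, 88.5% and 88.3% of each set. The members held 50.2% of all Dlk1 UMIs of quality-passing control barcodes and 69.6% of those of induced barcodes. Of epithelial barcodes, 0.506% in the control and 0.366% in the induced library held a Dlk1 UMI. Their median depths were 15850 and 21348 UMIs, above those of the members. Of 1000 drawn per library, 980 and 921 were deep enough to be thinned to 2000 UMIs. None of these held a Dlk1 UMI after thinning.

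**Figure D1:**
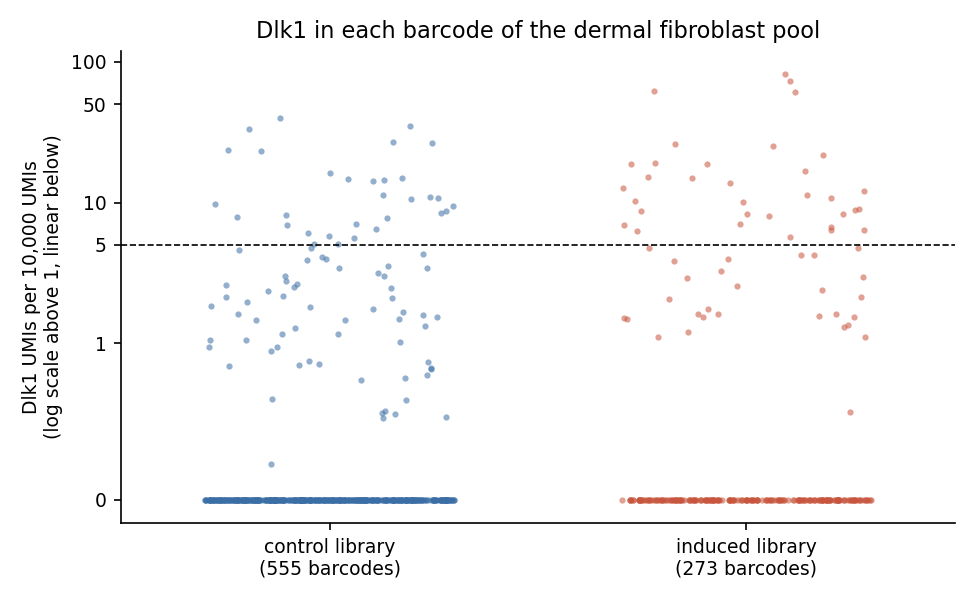
Dlk1 level of each collagen-positive dermal barcode, in UMIs per 10000 on an axis that is linear below 1 and logarithmic above, by library, with the dashed line at 5 per 10000 that separates Dlk1-high from Dlk1-low barcodes. Most Dlk1-low barcodes are at 0 and the 64 members spread from 5.09 to 81.7 with no gap at the line.

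Marker genes matched the label of fibroblasts. All 12 genes of a list of general fibroblast markers were detected in the members, with a median of 10 of them per barcode. Markers of other cell types were low, which for keratin, adipocyte, mural and dermal papilla genes the rule itself required in part. Keratinocyte markers summed to 838 CPM in control and 901 CPM in induced members, against 29368 and 33455 CPM over all quality-passing barcodes. Endothelial, immune, melanocyte and Schwann cell markers each summed to under 50 CPM in both libraries, and skeletal muscle markers were at 0. The adipocyte markers Adipoq, Plin1, Plin4, Cfd, Car3 and Pck1 were at 0 in both libraries. The adipocyte list still summed to 7.45 CPM in control and 992 CPM in induced members, nearly all of it Fabp4. Mural markers summed to 33.5 and 236 CPM, with Rgs5, Acta2, Myh11 and Des at 0 in the induced members and Tagln, a protein of the contractile cytoskeleton, going from 3 to 38 UMIs. The rule limited Rgs5, Acta2, Myh11 and Des. Kcnj8, a pericyte gene outside it, went from 0 to 14 UMIs, and without the highest barcode of each library it had 0 and 8.8 CPM. Dermal papilla markers summed to 134 and 405 CPM. No member was shared between the libraries by barcode, whereas 10 quality-passing barcodes were.

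Depth was alike and RNA composition differed. The members' UMIs had a lowest, median and highest value of 2758, 7683 and 20699 for the control and 1055, 7784 and 14879 for the induced library, and summed to 268464 and 241844. The median mitochondrial share was 5.27% in control and 3.33% in induced members. The share of ribosomal protein UMIs was 13.9% and 21.1%. In Dlk1-low barcodes the mitochondrial median was 5.81% and 4.93% and the ribosomal one 15.03% and 19.7%, so the direction was the same in both kinds of fibroblast.

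Each UMI counts a molecule's 3′ end once, so levels can be set side by side between genes without a length correction. With ribosomal protein and mitochondrial genes left out, the collagen genes of the rule led the control members' RNA, and Col3a1 led that of induced members too. Col3a1 had 46431 CPM in control and 24776 CPM in induced members, and Col1a1 had 37160 and 11871 CPM. Among genes that did not choose the members, Malat1, a nuclear noncoding RNA, was highest at 22387 and 18239 CPM, in induced members above Col1a1. Sparc, a collagen-binding matricellular protein, had 18997 and 12607 CPM. Dcn, the proteoglycan decorin, had 9741 and 6550 CPM. Meg3, the maternally expressed noncoding RNA of the imprinted domain that also holds Dlk1, had 6705 and 5214 CPM and was among the 15 most abundant genes.

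Dlk1-high fibroblasts held more RNA of several other imprinted genes than Dlk1-low fibroblasts, in both libraries. A gene was counted as higher or lower when its CPM plus 5 differed at least 2-fold the same way in both libraries, with Poisson intervals apart in each. Of 6116 genes compared, 81 were higher, 1.32% of them, and 111 were lower, 1.81%. With each barcode thinned to 2000 UMIs the split was 44 higher and 27 lower. The higher count includes Dlk1 and the lower count includes Acta2 and Rspo3, which the rule used. Of 29 imprinted genes listed, 17 besides Dlk1 were abundant enough, and 6 of those were higher and none lower. The 6 were Meg3, Rian, Igf2, H19, Zim1 and Plagl1. Rian and Zim1 lay close to 2-fold in the induced library, and both missed the rule when the Dlk1-low barcodes with Schwann genes described below were left out, when barcodes were thinned and without each gene's highest barcode. Zim1 also missed it with Dlk1 at 10 per 10000 or more, with a higher minimum of UMIs and with mitochondrial UMIs under 5%. The median log2 difference over the 17 was 1.10 in the control and 0.91 in the induced library, where all genes compared had medians of -0.18 and -0.15.

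The first 2 of the 6 share the domain of Dlk1 on chromosome 12. Dlk1 lies at chr12:109452823-109463336 and Meg3 at chr12:109541001-109571726, both on the plus strand of GRCm38. Meg3 had 6705 CPM in control and 5214 CPM in induced members, against 2371 and 2429 CPM in Dlk1-low barcodes. Rian, a further noncoding RNA downstream of Meg3, had 469 and 277 CPM in the members and 203 and 131 CPM in Dlk1-low barcodes. Imprinting control is tied to methylation of CG pairs. The 250 bases before the start sites of Dlk1, Meg3 and Plagl1 are shown from RefSeq on GRCm38.p6, with each CG in capitals. They are start site windows and are not taken as the regions that control imprinting. Methylation was not measured here.
Dlk1, chr12:109452573-109452822, plus strand: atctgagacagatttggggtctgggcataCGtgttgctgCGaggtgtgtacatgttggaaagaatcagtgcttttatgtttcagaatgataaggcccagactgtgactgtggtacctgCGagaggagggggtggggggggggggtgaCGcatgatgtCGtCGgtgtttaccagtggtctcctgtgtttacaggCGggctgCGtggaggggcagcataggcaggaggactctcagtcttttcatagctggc
Meg3, chr12:109540746-109540995, plus strand: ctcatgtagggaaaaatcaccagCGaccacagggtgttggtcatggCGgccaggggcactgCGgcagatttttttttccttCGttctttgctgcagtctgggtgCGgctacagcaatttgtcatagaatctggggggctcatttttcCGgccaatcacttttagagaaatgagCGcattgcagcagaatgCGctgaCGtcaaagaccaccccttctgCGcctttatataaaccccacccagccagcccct
Plagl1, chr10:13090582-13090831, plus strand: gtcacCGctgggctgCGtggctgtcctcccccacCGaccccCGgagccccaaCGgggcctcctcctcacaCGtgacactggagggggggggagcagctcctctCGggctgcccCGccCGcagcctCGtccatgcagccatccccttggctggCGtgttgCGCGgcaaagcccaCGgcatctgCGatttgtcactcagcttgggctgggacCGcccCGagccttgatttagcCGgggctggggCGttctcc
These windows hold 8, 10 and 19 CG pairs, and a second Meg3 window of the table, at chr12:109545148-109545397, holds 0. The median over all 32851 promoter windows of that length in the table was 6, and 43.0%, 37.8% and 19.7% of them held at least as many as those of Dlk1, Meg3 and Plagl1.

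The other 4 genes lie elsewhere. H19, a maternally expressed noncoding RNA of fetal tissues, had 760 CPM in control and 637 CPM in induced members and 152 and 114 CPM in Dlk1-low barcodes. Its per-barcode values had a lowest, median and highest of 0, 5.70 and 18.5 per 10000 in control and 0, 1.62 and 33.9 in induced members, so no H19 UMI was found in some members of each library, which at this depth does not show that the RNA was absent. Epithelial barcodes held 292 and 29.8 CPM of H19, so the control members lay above their library's epithelium by less than the induced members did. Igf2, the paternally expressed growth factor next to H19 on chromosome 7, had 145 and 306 CPM in the members against 36.7 and 31.0 CPM. Plagl1, a zinc finger transcription factor known to act on other imprinted genes, had 350 and 182 CPM against 58.0 and 38.7 CPM. Zim1, a zinc finger gene beside Peg3, had 291 and 199 CPM against 74.6 and 96.1 CPM. Both H19 and Igf2 were detected in 14 control and in 14 induced members.

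When all dermal fibroblasts were divided by Dlk1 level, these RNAs were higher in the classes with more Dlk1, though not at every step. The classes at 5 or more per 10000 hold the members. The 6 genes were chosen as higher there, so the rise across 5 per 10000 was fixed by that choice. With no Dlk1 UMI, with less than 5, with 5 to 10 and with 10 or more per 10000, Meg3 had 2291, 2841, 5597 and 7511 CPM in the control library. In the induced library it had 2289, 3267, 3013 and 7183 CPM, so the third class there lay below the second. Rian had 197, 237, 451 and 483 CPM in the control and 135, 108, 219 and 329 CPM in the induced library, where the second class lay below the first. H19 had 130, 282, 663 and 830 CPM in the control and 72.3, 360, 342 and 901 CPM in the induced library. Igf2 had 33.3, 57.0, 150 and 142 CPM in the control and 28.6, 44.9, 158 and 439 CPM in the induced library. Plagl1 had 49.99, 105, 380 and 328 CPM in the control and 27.9, 103, 184 and 180 CPM in the induced library. For H19, Igf2 and Plagl1 the second class, whose barcodes are not members, already lay above the first in both libraries, with overlapping intervals for Igf2 in the induced one. Its median depth was also higher, 11695 against 8918 UMIs in the control and 7490 against 5726 in the induced library. The part of depth was not tested. Zim1 had 66.7, 121, 318 and 270 CPM in the control and 87.3, 148, 201 and 196 CPM in the induced library. Mest, an imprinted gene outside the 6, had 88.2, 156, 168 and 251 CPM in the control but 87.3, 71.9, 35.0 and 78.3 CPM in the induced library. Ndn, an imprinted gene of another domain, had 229, 232, 274 and 238 CPM in the control and 166, 98.9, 175 and 188 CPM in the induced library, with no such order. Cdkn1c, an imprinted inhibitor of cell division, had its lowest value in the first class of both libraries, at 236 and 412 CPM, and Peg3 likewise, at 657 and 938 CPM. The classes held 464, 60, 15 and 16 barcodes in the control and 212, 28, 13 and 20 in the induced library.

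**Figure D2:**
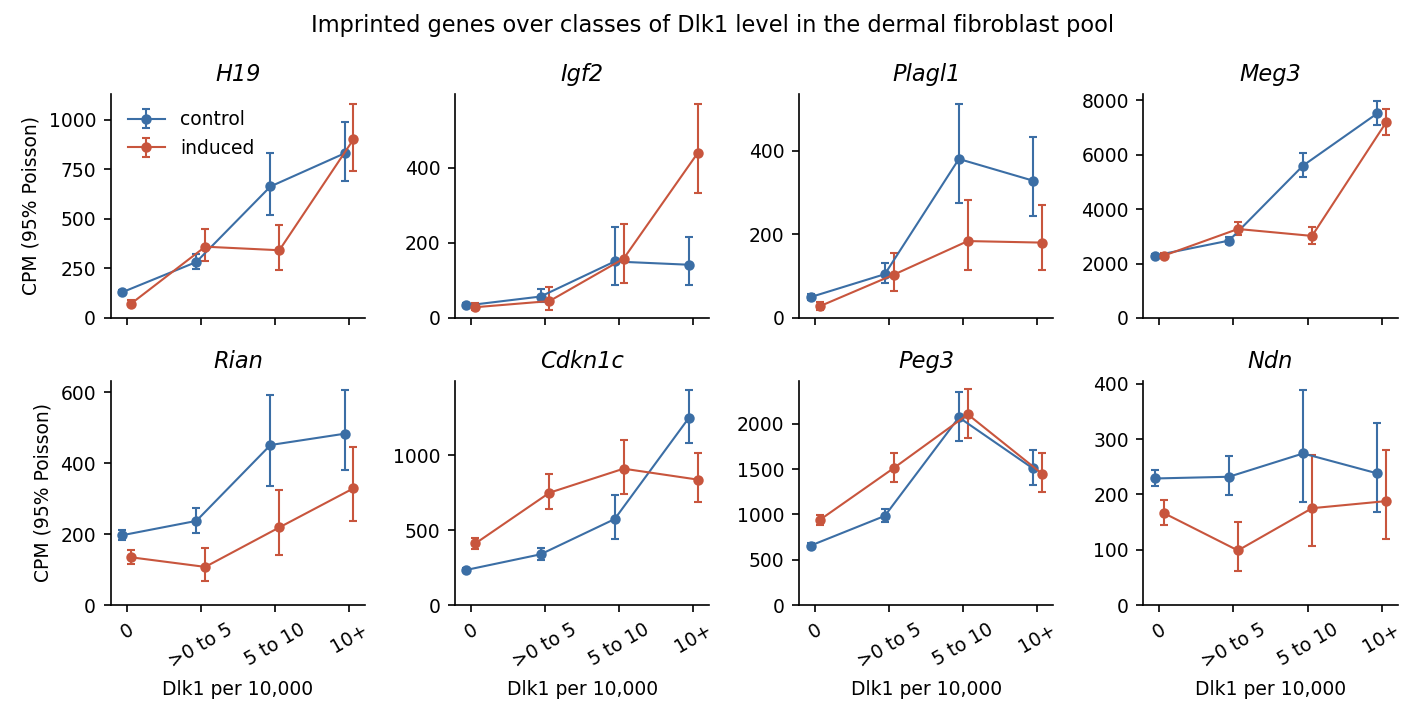
Summed level in CPM of imprinted genes in dermal fibroblasts classed by Dlk1 per 10000 UMIs, by library, with exact Poisson intervals. H19, Igf2 and Plagl1 are lowest where no Dlk1 UMI was found in either library, and Ndn shows no order.

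The genes with the largest differences in this direction were named by size. C1qtnf3, a secreted relative of adiponectin, had 954 CPM in control and 372 CPM in induced members against 70.9 and 52.2 CPM in Dlk1-low barcodes. Rbp4, the carrier of retinol in blood, had 726 and 331 CPM against 72.9 and 57.4 CPM. Agtr2, the type 2 angiotensin II receptor, had 134 and 203 CPM against 3.48 and 19.3 CPM, but 58.3% of its control UMIs came from 1 barcode. Clec3b, the plasminogen-binding protein tetranectin, had 112 and 538 CPM against 3.48 and 74.8 CPM. Ly6a, the surface antigen Sca-1 of many progenitors, had 138 and 864 CPM against 20.3 and 164 CPM. Lpl, the lipase that releases fatty acids from lipoproteins, had 801 and 2779 CPM against 146 and 649 CPM. Pappa2, a protease that cleaves insulin-like growth factor binding proteins, had 127 and 265 CPM against 3.67 and 58.0 CPM. Itm2a, an integral membrane protein, had 1106 and 786 CPM against 180 and 193 CPM. Between the libraries, by the size rule given below, C1qtnf3 and Rbp4 were lower and Clec3b, Ly6a, Lpl and Pappa2 higher in induced members, and Itm2a and Agtr2 did not pass. Of the 14 preadipocyte genes compared, 3 were higher in Dlk1-high barcodes, namely Ly6a, Lpl and Cebpd, and none was lower.

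**Figure D3:**
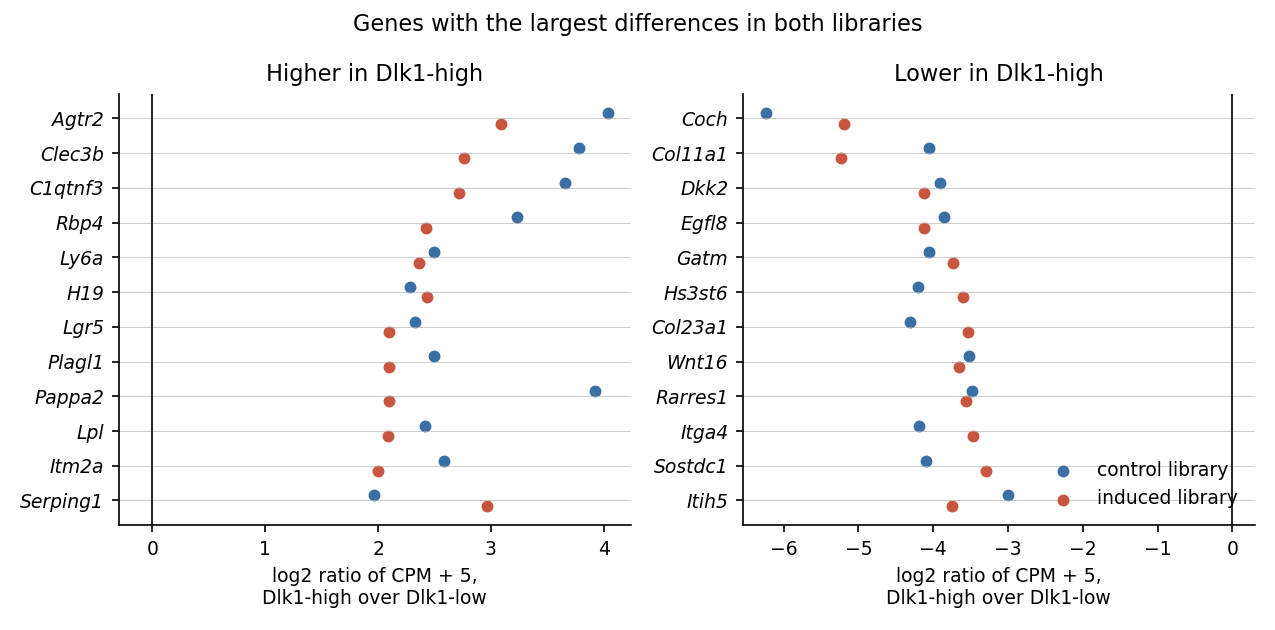
Log2 ratio of CPM plus 5 in Dlk1-high over Dlk1-low barcodes for the 12 genes named in each direction, 1 point per library. The higher genes lie between 1.97 and 4.04 and the lower ones between -6.24 and -3.00. No error bars are drawn, and for genes at 0 in the members the ratio depends on the 5 CPM added.

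Genes lower in the members included markers of the upper dermis and several that were not found in them at all. Coch, the matrix protein cochlin, had no UMI in the members of either library and 372 CPM in control and 177 CPM in induced Dlk1-low barcodes. In the members a count of 0 allows up to 11.2 CPM in the control and 12.4 CPM in the induced library, by counting error alone. Coch was held by few barcodes, 51 of 464 control and 15 of 212 induced ones with no Dlk1 UMI. The limit does not cover which barcodes were sampled, so it is no bound for a gene held by few barcodes. Col11a1 and Col23a1, both collagen chains, Wnt16, a Wnt ligand, and Itga4, an integrin chain, were also at 0 in the members, as were Egfl8, Gatm, Hs3st6 and Rarres1. Their levels in Dlk1-low barcodes lay between 50.3 and 182 CPM. Dkk2 and Sostdc1, secreted Wnt antagonists, had 3 UMIs or fewer in the members of each library and between 81.9 and 182 CPM in Dlk1-low barcodes. Itih5, a protein that binds hyaluronan in the matrix, was abundant enough to measure in both sets. It had 168 and 82.7 CPM in the members and 1376 and 1171 CPM in Dlk1-low barcodes, log2 differences of -3.00 and -3.75. Across the 4 Dlk1 classes it had 1438, 1012, 150 and 180 CPM in the control and 1264, 616, 87.6 and 78.3 CPM in the induced library. Of 11 upper dermal genes compared, 5 were lower and none higher, with medians of -1.11 and -1.29. The 5 were Lrig1, Apcdd1, Col23a1, Trps1 and Crabp1. The Dlk1-low barcodes also included some with Schwann cell RNA. Schwann markers summed to 290 and 625 CPM there against 3.73 and 8.27 CPM in the members, and 24 control and 10 induced Dlk1-low barcodes held at least 2 of those genes. Without those barcodes 81 genes were higher and 108 lower, and Egfl8 and Gatm were no longer counted. Dlk1-low barcodes held RNA of further cell types. Mural markers summed to 239.6 and 848.5 CPM there, dermal papilla markers to 341.8 and 576.4 CPM and melanocyte markers to 31.5 and 209.6 CPM. In the members these sums were 33.5 and 236, 134 and 405, and 37.25 and 45.5 CPM. No alternative left out barcodes with such RNA. With each barcode thinned to 2000 UMIs, 5 of the 12 named lower genes still passed, namely Coch, Col11a1, Dkk2, Sostdc1 and Itih5. With mitochondrial UMIs under 5%, 9 of the 12 did.

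Between the libraries, induced members held more RNA of Igfbp3, Igfbp6 and Igfbp7, of 9 of 14 preadipocyte genes and of 18 of 23 immediate early and stress genes than control members. They held less of Mfap4, Sfrp2, Egfl6, Ogn, Lum and Serpinh1. Of 5766 genes compared, 284 were higher in induced members, 4.93% of them, and 175 were lower, 3.04%, by the same size rule within the members. The median log2 difference over all of them was 0.01. Genes of the rule were among these counts, Hhip and Wif1 among the higher and Col1a1 and Col1a2 among the lower. Of the 284 higher genes, 149 differed at least 2-fold the same way in Dlk1-low barcodes, which is 52.5%, and 14 did so in the remaining quality-passing barcodes, or 4.93%, where 12 differed 2-fold the opposite way. Of the 175 lower genes, 34 did so in Dlk1-low barcodes, 19.4%, and 25 in the remaining barcodes, 14.3%, with 2 the opposite way. Of all 5766 genes, 4.49% were higher and 1.98% lower by that measure in Dlk1-low barcodes, and 0.763% and 3.12% in the remaining ones. The differences in mitochondrial and ribosomal shares given above, and the immediate early genes below, moved together with these counts. Their part in the result was not tested.

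**Figure D4:**
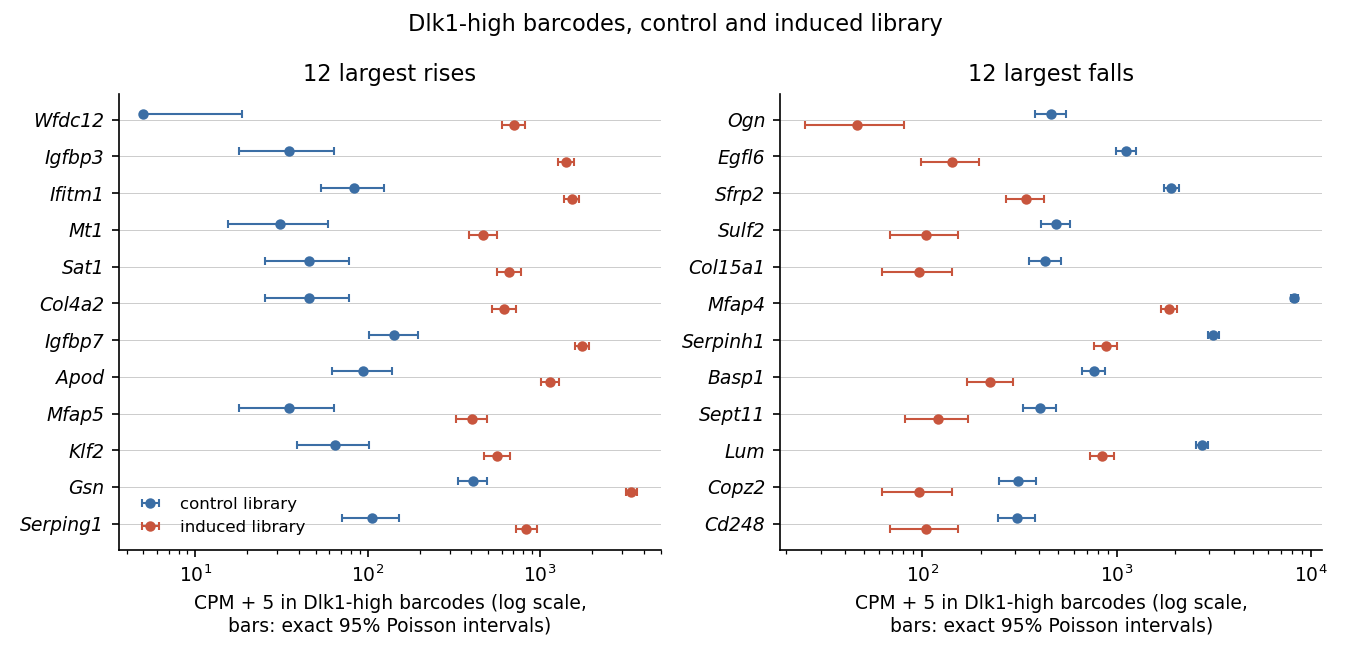
CPM plus 5 in Dlk1-high members on a log axis for the 12 genes with the largest rise (left) and the 12 with the largest fall (right), control and induced library, with exact 95% Poisson intervals. The intervals of the 2 libraries are apart for all 24 genes, which the choice of these genes required.

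Genes of the insulin-like growth factor (IGF) pathway differed in both directions. Of 17 genes of this axis compared, 8 were higher in induced members and 1 lower, with a median log2 difference of 1.03. Igfbp3, the main carrier of IGFs, had 8 UMIs in control and 340 in induced members, 29.8 and 1406 CPM. The log2 ratio was 5.56 (4.57 to 6.78). Igfbp7, a secreted relative of these carriers, had 138 and 1745 CPM, a log2 ratio of 3.66 (3.18 to 4.19). Igfbp7 barcode values had a lowest, median and highest of 0, 0 and 32.8 per 10000 in control and 0, 4.14 and 71.4 in induced members. The groups overlapped. A control median of 0 means that no UMI was found, which at this depth does not show that the RNA was absent. After each barcode was thinned to 2000 UMIs, 12.9% of control and 65.5% of induced members held an Igfbp7 UMI (22.6% and 72.7% before thinning). The same share in thinned epithelial barcodes was 2.65% and 4.13%. Igfbp6 had 3 and 56 UMIs, the 3 from 1 barcode. Igf2, the ligand, had 145 and 306 CPM, a log2 ratio of 1.08 (0.50 to 1.67). Without the highest barcode of each library Igf2 had 130 and 231 CPM and did not pass, and it was detected in 16 of 31 control and 15 of 33 induced members. Igf1r, the receptor, had 70.8 and 178 CPM. Igfbp2 was the gene that was lower, at 265 and 120 CPM, but without the highest barcode of each library it had 86.9 and 55.5 CPM and did not pass. Igfbp4, at 108 and 107.5 CPM, and Igfbp5, at 212 and 141 CPM, did not pass either. In Dlk1-low barcodes Igfbp3 had 20.5 and 340 CPM and Igfbp7 had 95.3 and 1017 CPM, so both were higher there too.

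Preadipocyte genes came next. Of 14 compared, 9 were higher and none lower, with a median of 1.46, or 1.47 with genes at 0 set to 3 counts. Fabp4, a fatty acid carrier of fat and endothelial cells, had 2 UMIs in control and 239 in induced members, 7.45 and 988 CPM. Thinned to 2000 UMIs, none of 31 control and 48.3% of 29 induced members held a Fabp4 UMI (6.45% and 57.6% before thinning), against 1.22% and 0.869% of epithelial barcodes. Endothelial markers summed to 18.6 and 20.7 CPM in the same members. Lpl had 801 and 2779 CPM, a log2 ratio of 1.80 (1.57 to 2.02). Its barcode values were 0, 6.51 and 21.2 per 10000 in control and 0, 22.2 and 173 in induced members at the lowest, median and highest, so the induced median lay above the highest control barcode. Ly6a had 138 and 864 CPM and Cebpd, an early adipogenic transcription factor, had 142 and 881 CPM. Pparg, the transcription factor that drives fat cell differentiation, had 3 and 5 UMIs and Cebpa, which acts beside it, had 74.5 and 28.9 CPM. Pparg was too low to compare, and Cebpa did not pass the size rule. In Dlk1-low barcodes 10 of 14 genes of this list were higher and none lower, with a median of 1.83, and Fabp4 had 18.2 and 715 CPM.

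Other secreted and surface proteins were higher as well. Apod, a lipid-binding lipocalin, had 89.4 and 1137 CPM. Gsn, the actin-severing protein gelsolin, had 402 and 3382 CPM, and its barcode medians were 3.25 and 12.1 per 10000. Serping1, the inhibitor of complement C1, had 101 and 827 CPM, a log2 ratio of 3.04 (2.46 to 3.68). Col4a2, a chain of basement membrane collagen, had 41.0 and 616 CPM, and its partner Col4a1 had 123 and 831 CPM. Mfap5, a microfibril-associated glycoprotein, had 29.8 and 397 CPM. Of the 12 genes with the largest rise, Wfdc12 was carried by 1 barcode, which held 98.8% of its 169 induced UMIs, and for the metallothionein Mt1 the highest barcode held 52.7%. Without its highest barcode Wfdc12 had 0 and 8.62 CPM.

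Most immediate early genes were higher. Of 23 immediate early and stress genes compared, 18 were higher and none lower, with a median of 1.25, and in Dlk1-low barcodes 21 of 23 were higher. Fos had 890 and 2775 CPM and Junb had 402 and 1286 CPM, both subunits of the AP-1 transcription factor. Ier2 had 134 and 943 CPM and Zfp36, which destabilises cytokine RNA, had 127 and 711 CPM. Of 7 chemokine and cytokine genes compared, 5 were higher and none lower. Cxcl12, a chemokine made by fibroblasts, had 212 and 939 CPM. Of 10 interferon response genes, 3 were higher, among them Ifitm3 at 630 and 1890 CPM. Ifitm1 of the same family had 78.2 and 1518 CPM.

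The named lower genes included several of the matrix. Mfap4, a glycoprotein of elastic fibres, had 8191 CPM in control and 1852 CPM in induced members, a log2 ratio of -2.15 (-2.29 to -2.00). Its barcode values were 0, 60.3 and 155 per 10000 in control and 0, 5.92 and 78.4 in induced members at the lowest, median and highest, so the ranges overlapped and the medians were far apart. Sfrp2, a secreted modulator of Wnt signalling, had 1907 and 335 CPM, a log2 ratio of -2.51 (-2.87 to -2.17). With barcodes thinned to 2000 UMIs its log2 ratio of CPM plus 5 was smaller, -1.30 against -2.49. Egfl6, a secreted integrin ligand, had 1114 and 137 CPM. Ogn, the small proteoglycan osteoglycin, had 122 UMIs in control and 10 in induced members, a log2 ratio of -3.46 (-4.55 to -2.53). Lum, the proteoglycan lumican, had 2756 and 839 CPM. Serpinh1, the chaperone of procollagen, had 3140 and 877 CPM, and its barcode medians were 26.1 and 7.30 per 10000. The remaining lower genes named by size were Sulf2, Col15a1, Basp1, Sept11, Copz2 and Cd248, with log2 ratios between -2.28 and -1.60. With barcodes thinned to 2000 UMIs, Sept11, Copz2 and Cd248 missed the size rule, Copz2 at -0.53 in CPM plus 5.

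Most genes of the matrix families did not pass the size rule, and their medians lay on both sides of that of all genes, which was 0.01. Of 16 collagen genes of a chosen list that were compared, 4 were lower, namely Col7a1, Col14a1, Col15a1 and Col26a1, and 3 were higher, namely Col4a1, Col4a2 and Col6a6, with a median of -0.36. Col5a2, which assembles with type I collagen, had 2470 and 1348 CPM and Col6a1 had 1460 and 1365 CPM, neither past the size rule. Of 18 elastic fibre genes 4 were lower and 3 higher, with a median of -0.45. Of 7 small proteoglycans 2 were lower and 1 higher, with a median of -0.57. Of 20 collagen processing genes 3 were lower and 1 higher, with a median of -0.26. Of 16 matrix proteases and inhibitors 3 were higher and 2 lower, with a median of 0.36, and of 19 matricellular and adhesive genes 5 were higher and 1 lower, with a median of -0.02. Of the collagens that chose the members, Col1a1 and Col1a2 were lower and Col3a1 did not pass. In Dlk1-low barcodes Serpinh1 had 2828 and 959 CPM, Lum had 3672 and 1277 CPM and Mfap4 had 1941 and 1052 CPM. Egfl6 had 256 and 276 CPM there.

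**Figure D5:**
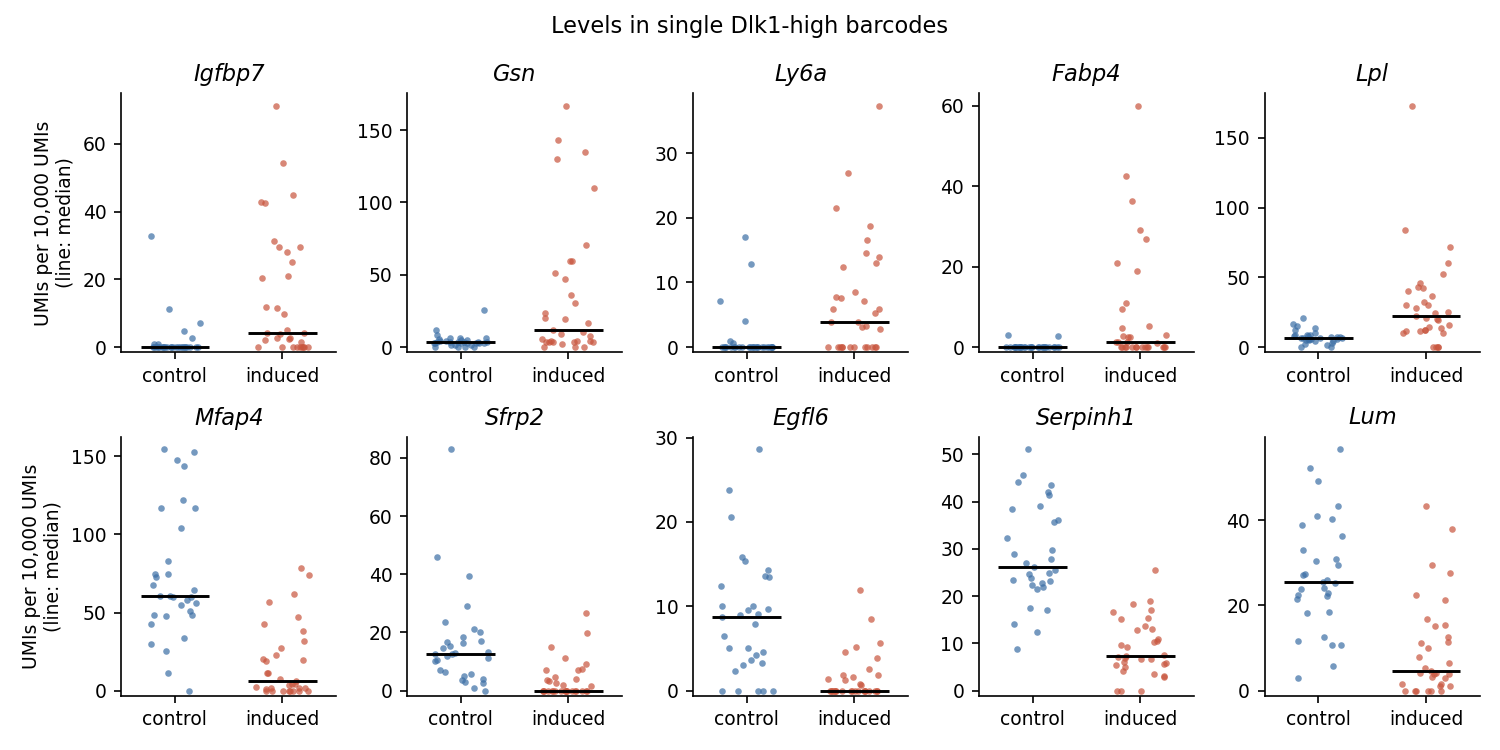
UMIs per 10000 of 5 genes that were higher (Igfbp7, Gsn, Ly6a, Fabp4, Lpl) and 5 that were lower (Mfap4, Sfrp2, Egfl6, Serpinh1, Lum) in induced members, 1 point per Dlk1-high barcode, by library. Points of both libraries overlap for each gene, and barcodes at 0 are found in the induced library for all 10.

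Imprinted genes and known regulators mostly did not pass the size rule between the libraries. Of 18 imprinted genes compared 1 was higher, Igf2, with the limit given above, and 1 lower, Mest, at 216 and 57.9 CPM. Of 11 genes listed as targets of miR-200 none passed in either direction, and the median was -0.37. Zeb2 had 756 CPM in control and 500 CPM in induced members, and Zeb1 had 70.8 and 53.8 CPM. Gm13648, the annotated transcript on chromosome 4 that contains the Mir200b gene, had no UMI in control and 6 in induced members. Thinned to 2000 UMIs it was found in 1 of 29 induced members, 3.45%, or 15.2% without thinning. In epithelial barcodes of the induced library, whose median depth was 21348 UMIs against 7784 in the members, it was found in 59.1% after the same thinning. In thinned Dlk1-low barcodes of that library it was found in 4.15%. No expression in the members is read from so few UMIs. Mature microRNA is not captured by this chemistry. Of the Notch pathway, to which Dlk1 is related, the other ligands were too low to compare, with Jag1 at 5 and 3 UMIs. Notch2 was the 1 receptor compared, at 33.5 and 49.6 CPM.

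The members of a library were not uniform. Among 899 genes with enough UMIs after thinning to 2000, the variance over the mean between barcodes was highest for Malat1, at 24.8 in control and 13.9 in induced members. Gsn had 2.49 and 12.9 at means of 1.03 and 7.72 UMIs per thinned barcode. This ratio can rise with the mean, so no difference in relative spread is read from it. Ly6a and Fabp4 were detected together in 1 control and 17 induced members, and Ly6a and Clec3b in 2 and 15. Ly6a and Mfap4 were found together in 6 and 16 members, and C1qtnf3 and Rbp4 in 14 and 12. Taken singly, Ly6a was found in 6 control and 21 induced members, Fabp4 in 2 and 19 and Clec3b in 10 and 18. Mfap4 was found in 30 and 25, C1qtnf3 in 18 and 16 and Rbp4 in 18 and 17. Joint counts follow in part from these single ones, so no link between the genes is read from them. No thinned member of either library held 2 or more UMIs of G2/M genes, 0 of 31 and 0 of 29, which by a limit of 3 counts of the total allows up to 9.68% and 10.3% of barcodes with such counts at that depth (exact 95% upper bounds 11.2% and 11.9%) and sets no limit on dividing cells. Without thinning the shares were 12.9% and 15.2%. In Dlk1-low barcodes the thinned shares were 12.9% and 5.99%, and those without thinning 35.1% and 23.8%.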

How the data were processed

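Single-cell 3′ RNA was measured in 2 libraries. The authors deposited UMI counts per gene and barcode, aligned to mm10 with Cell Ranger 6.0.0 per the submitters' processing notes, with 32285 genes. The Dlk1-high members and the gene lists were chosen with earlier results of these data known. UMIs were summed over the members of each library and scaled to CPM. A gene was compared at a mean of 20 CPM or more, and counted as higher or lower at a fold of 2 or more in CPM plus 5 with exact Poisson 95% intervals apart. Ratio intervals are exact conditional binomial intervals. The 12 largest rises and falls were named among genes with 100 or more UMIs over both libraries and 50 CPM or more in the higher one, leaving out genes of the rule, of other cell types and of housekeeping classes. For the comparison with Dlk1-low barcodes, 12 genes in each direction were named by their smaller difference of the 2 libraries, and the 15 most abundant and 10 most variable genes were listed. Shares of barcodes with a UMI were taken after thinning each barcode to 2000 UMIs, leaving out 4 induced members. Epithelial barcodes passed quality with at least 100 keratin UMIs and fewer than 50 of the rule's collagens per 10000. For thinning, 1000 of them were drawn per library, of which 980 and 921 were deep enough. Doublets were scored with scanpy 1.11.5. Its automatic threshold marked 3 and 1 barcodes and was not used, so no barcode was removed. The highest 7% of scores, 362 and 368 barcodes, held 0 and 1 members, and leaving them out was an alternative. Sums of 31 and 33 barcodes hold 268464 and 241844 UMIs, so 3 counts stand for 11.2 and 12.4 CPM. The size rule was tested on simulated data in 2 forms and made no call in the wrong direction, but it missed many true differences of genes with few UMIs, above all falls when the whole change lay in the induced library. Sequences came from RefSeq on GRCm38.p6 and gene positions from an annotation of the same build. Computation ran under Python 3.11.15 with scipy 1.17.1 for intervals, pandas 2.3.3 and numpy 2.4.6 for tables, and matplotlib 3.10.9 for plots.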

Additional observations from a re-analysis of the deposited data

Results flagged for a closer look

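Differences between the libraries ran in opposite directions in the Dlk1-high and Dlk1-low fibroblasts for 2 of the named genes, counting those whose intervals lay on opposite sides of 0, and the difference of these differences was not tested. Col15a1, a collagen of basement membrane zones, had a log2 ratio of induced over control of -2.22 (-2.95 to -1.56) in the members and 0.45 (0.15 to 0.74) in Dlk1-low barcodes, with a gap of -2.59 between the log2 ratios of CPM plus 5. Sept11, a septin of the cytoskeleton, had -1.78 (-2.44 to -1.17) and 0.36 (0.19 to 0.53), with a gap of -2.10 on that same scale. With barcodes thinned to 2000 UMIs the fall of Sept11 in the members was -1.23 on that scale and missed the size rule. The intervals cover counting error in 1 library per group.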

How the results depend on the processing

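No paired analysis was possible because each group is 1 library. A Dlk1 minimum of 10 per 10000 gave shares of the fibroblast pool of 2.88% in the control and 7.33% in the induced library, and with mitochondrial UMIs under 5% the induced share was 18.1%. Under 5% mitochondrial UMIs 64 genes were lower in Dlk1-high than Dlk1-low barcodes. Thinning each barcode to 2000 UMIs, which leaves fewer counts, gave 118 genes higher and 59 lower in induced members, and 44 higher and 27 lower in Dlk1-high against Dlk1-low barcodes. Chosen after seeing the data, leaving out each gene's highest barcode gave 236 genes higher and 170 lower in induced members. In the comparison with Dlk1-low barcodes it gave 45 higher and 177 lower, and by construction it lowers only the members there. Of the 24 genes named between the libraries, 20 passed the size rule under each alternative run for them. Sept11, Copz2 and Cd248 missed it when thinned, and Wfdc12 without its highest barcode. The thinned log2 ratios of CPM plus 5 were -1.23 for Sept11, -0.53 for Copz2 and -1.45 for Cd248. Before thinning they were -1.74, -1.69 and -1.56, so Copz2 shrank most and Cd248 least. Other pseudocounts and level filters were run for the counts of genes alone. None of the values recomputed for these genes changed sign. Of the 6 imprinted genes higher than in Dlk1-low barcodes, Meg3, Igf2, H19 and Plagl1 passed under each alternative of that comparison. Leaving out Dlk1-low barcodes with Schwann genes was also chosen after seeing the data. Few UMIs limit what can be seen in genes under about 20 CPM.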
